A study of Homo sapiens with 70 samples.

Results

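Without induction, the cell line that carries sgZBTB11 #1 was set against the control line sgNS. The libraries were chosen by their labels, as those titled DMSO of these 2 lines, and they numbered 22 of the 70 libraries of the series, 11 of each line. The cells were MIA PaCa-2, an established pancreatic ductal adenocarcinoma (PDAC) line, in a sotorasib-resistant form. Per the series' design text, an inducible dCas9-KRAB, a dead Cas9 fused to a repressor domain, knocks down ZBTB11 when induced. The vehicle DMSO took the place of the inducer doxycycline (DOX) in all 22 libraries, so neither line had been induced. Cells of each line were collected at 5 hr, day 1, day 3 and day 5. Each of the 8 groups held 3 libraries, except sgNS DMSO at day 1 and sgZBTB11 #1 DMSO at day 5, which held 2. Each guide was represented by 1 cell line, so a property of the guide and a property of the line cannot be told apart, and the labels do not say whether a line was a clone. Separate cultures are not named for the libraries of a group, so the spread between libraries of a group may be technical. The p-values at single times cover that spread alone. Those over all times also take in any change of the line difference with time.

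An inducible knockdown is read as the change after induction, and the uninduced lines give its starting point. Lines made from the same parental cells with different guides can differ in expression before any induction. Genes that differ in the same direction at each time of collection are called standing differences here, to set them apart from differences that come and go with the time of collection.

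Total counts ranged from 12068842 to 20627642 per library, and no library pair of a group held identical values. Transcripts of mitochondrial DNA took 14.1%, 12.3%, 18.4% and 26.3% of counts (group means in order of time) in sgNS and 14.1%, 10.2%, 21.8% and 33.6% in sgZBTB11 #1. The labelled cell type was checked against 33 epithelial adhesion and keratin genes, whose summed level was 4417 to 10036 CPM (counts-per-million) in sgZBTB11 #1 and 4263 to 11867 in sgNS. A list of 14 immune markers summed to 5.67 to 12.1 CPM in sgZBTB11 #1 and 4.49 to 15.4 in sgNS, with 5 and 4 of them at 0 in all libraries of the line. The 10 acinar markers summed to at most 0.888 and 1.10 CPM. The 10 fibroblast markers summed to 375 to 670 CPM in sgZBTB11 #1 and 373 to 583 in sgNS. The 34 ductal and PDAC subtype markers summed to 272 to 439 CPM in sgZBTB11 #1 and 284 to 452 in sgNS. Of these, 15 and 13 were at 0 in all libraries of the line. The 27 mesenchymal and cytoskeletal genes summed to 5527 to 7816 CPM in sgZBTB11 #1 and 6447 to 8496 in sgNS. The 14 endocrine and neuroendocrine markers summed to 74.3 to 213 and 79.9 to 189 CPM.

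Of 17255 genes tested, 3734 (21.6%) passed an adjusted p of 0.05 for the line difference with time as a covariate (edgeR's quasi-likelihood test with Benjamini-Hochberg adjustment). Standing differences, which passed this test and had the same sign at each of the 4 times, numbered 2525 (14.6%). Of these, 1187 (6.88% of genes tested) were higher in sgZBTB11 #1 and 1338 (7.75%) were lower. Most were small, with a median size of 0.20 on the log2 scale. A size of 0.5 was reached by 146 higher and 128 lower genes, and a size of 1, a 2-fold difference, by 34 higher and 31 lower genes. The libraries of sgZBTB11 #1 lay above those of sgNS without overlap at each time for 175 genes (1.01%) and below them for 409 genes (2.37%). Within single times 4802 genes (27.8%, with 13.1% higher and 14.7% lower) differed at 5 hr. Day 1 gave 3300 genes (19.1%, with 9.61% higher and 9.51% lower) and day 3 gave 3143 (18.2%, with 8.14% and 10.1%). Day 5 gave 3304 genes (19.1%, with 9.72% and 9.42%). The threshold was passed at each of the 4 times by 70 higher genes (0.406%) and 223 lower genes (1.29%). The same sign at all 4 times, with no test, was seen in 22.6% of genes tested. The other 1209 genes past the threshold changed sign between times. The line difference itself varied with time in 5904 genes (34.2%), including 808 standing genes (32%), so a standing direction does not mean a constant size. Counts depended on the method. Limma on log2(TPM + 1), in which unit, test, filter and scaling changed together, gave 344 standing higher and 685 standing lower genes.

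The rule for the largest named genes took only genes in which the lines did not overlap within any time. Among the 12 standing genes with the largest decreases that this rule gave, the lowest relative to sgNS was CFI (ENSG00000205403, complement factor I, a protease that inactivates complement). CFI levels in sgZBTB11 #1 were 1.83 CPM in the lowest library, 3.65 at the median and 7.07 in the highest, against 11.5, 22.2 and 27.3 CPM in sgNS. Every sgNS library lay above every sgZBTB11 #1 library, with a log2 difference of -2.27 (SE 0.0735, adjusted p = 2.2e-20). The CFI difference was -2.31, -2.62, -2.04 and -2.29 at 5 hr, day 1, day 3 and day 5. In bulk RNA, fewer cells with a transcript and less of it per cell cannot be told apart. DHRS2, a short-chain dehydrogenase/reductase, had 0.643, 1.70 and 6.90 CPM (lowest, median, highest) in sgZBTB11 #1 and 3.11, 13.3 and 30.7 in sgNS. DHRS2 rose over the days in both lines, so the lines overlapped across times but not within a time, and its log2 difference was -2.11 (SE 0.0918, adjusted p = 3.2e-17). The long non-coding RNA LINC01182 stood at 1.24, 2.21 and 8.48 CPM in sgZBTB11 #1 and at 4.64, 18.6 and 34.1 in sgNS, a log2 difference of -1.86 (SE 0.0619, adjusted p = 2.2e-20). LINC01182 went from 6.25 ± 0.21 (SD, n = 3) to 32.2 ± 1.8 CPM between 5 hr and day 5 in sgNS, and from 1.98 ± 0.20 (n = 3) to 7.83 ± 0.93 (n = 2) in sgZBTB11 #1.

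The other 9 of these genes had log2 differences between -1.16 and -0.69. TPD52L1, a member of the tumour protein D52 family, had 1.75 to 5.19 CPM in sgZBTB11 #1 and 4.92 to 9.13 in sgNS, a log2 difference of -1.16. KRT13, a keratin of stratified mucosa, was lower by -1.15, and TNFSF18, the ligand of the receptor GITR, by -0.98. TUBB1, the beta-tubulin of platelets, had a log2 difference of -0.90, and LONRF3, a RING finger protein, of -0.88. VAMP5, a vesicle SNARE protein, and TANC2, a scaffold protein, had log2 differences of -0.84 and -0.71. SERPINA5, the protein C inhibitor, had a difference of -0.69. SULT1A1, a phenol sulfotransferase, had a difference of -0.82, which is uncertain because the counts split reads between it and its close paralogs by estimation. That the lines did not overlap within any time in these 12 genes was a condition of the rule.

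**Figure D1:**
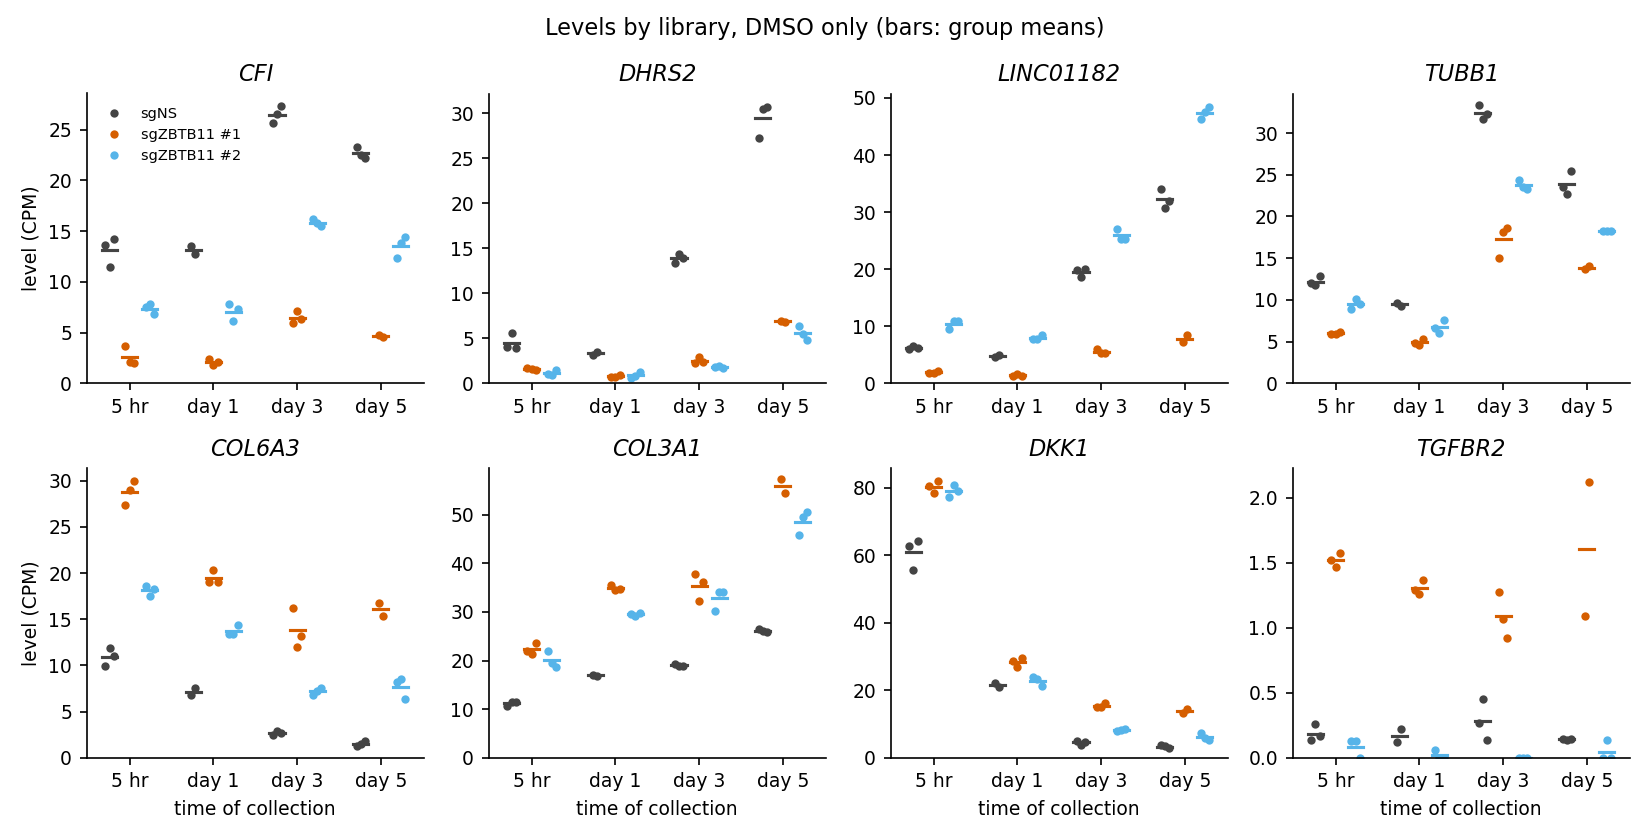
Level in CPM (vertical axes, linear) of 8 genes in each DMSO library by time of collection, with points for libraries, bars for group means, and sgZBTB11 #2 shown beside sgNS and sgZBTB11 #1. CFI, DHRS2, LINC01182 and TUBB1 were lower in sgZBTB11 #1 than in sgNS at each time, and COL6A3, COL3A1, DKK1 and TGFBR2 were higher.

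Genes of the extracellular matrix, a mechanosensitive channel and a secreted Wnt antagonist were among the 12 largest increases by the same rule. PIEZO2, a mechanically gated cation channel, had 0.400, 1.75 and 15.8 CPM (lowest, median, highest) in sgZBTB11 #1 and 0.0610, 0.938 and 3.79 in sgNS. Its log2 difference was 2.23 (SE 0.134, adjusted p = 8.9e-14), and the 2 lines overlapped across times but not within a time. COL6A3, which encodes a chain of collagen VI (chromosome 2, 237324018 to 237414164), had 12, 19 and 29.9 CPM in sgZBTB11 #1 and 1.23, 2.89 and 11.9 in sgNS. Every sgZBTB11 #1 library lay above every sgNS library, and the log2 difference was 1.91 (SE 0.169, adjusted p = 1.9e-07). COL6A3 fell over the days in both lines, from 11 ± 0.95 (SD, n = 3) at 5 hr to 1.51 ± 0.31 CPM (n = 3) at day 5 in sgNS and from 28.8 ± 1.3 (n = 3) to 16.1 ± 0.94 (n = 2) in sgZBTB11 #1. Its log2 difference was therefore 1.41 at 5 hr and 3.36 at day 5. COL3A1, which encodes the chain of collagen III, rose over the days in both lines. It had 21.3, 34.7 and 57.2 CPM in sgZBTB11 #1 and 10.7, 18.8 and 26.5 in sgNS, and its log2 difference of 1.01 (SE 0.0373, adjusted p = 3.8e-19) lay between 0.89 and 1.09 at the 4 times. COL5A2, a chain of collagen V, was also higher, at 334 to 709 CPM in sgZBTB11 #1 against 256 to 538 in sgNS, a log2 difference of 0.47. Of 25 laminin and collagen genes tested, 3 were standing higher, these collagens, and 1 was standing lower, LAMA4, with a log2 difference of -1.26. The median of that list was 0.03. Its shares were 12% higher and 4% lower, against 6.88% and 7.75% of all genes tested.

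DKK1, a secreted inhibitor of Wnt receptors, and LNCAROD, a long non-coding RNA transcribed near it on chromosome 10, were both higher in sgZBTB11 #1. DKK1 had 13.3, 26.8 and 81.8 CPM (lowest, median, highest) in sgZBTB11 #1 and 2.86, 5.03 and 64.2 in sgNS. Its level fell in both lines with time, from 60.8 ± 4.5 to 3.32 ± 0.42 CPM in sgNS (SD, n = 3 each) and from 80.3 ± 1.7 (n = 3) to 13.8 ± 0.74 (n = 2) in sgZBTB11 #1. The log2 difference of DKK1 was 0.42 at 5 hr and 2.08 at day 5, and 0.84 over all times (SE 0.162, adjusted p = 0.0010). LNCAROD had a log2 difference of 1.10. PRND, which encodes the prion-like protein doppel, had 11.6 to 16.3 CPM in sgZBTB11 #1 and 2.56 to 10.9 in sgNS, so all sgZBTB11 #1 libraries were above all sgNS libraries. Its log2 difference was 1.3. RAB17, a small GTPase of epithelial cells, and SBK2, a kinase of the SBK family, each had a difference of 1.03. SEMA3C, a secreted semaphorin, had 0.77 and CDH5, the VE-cadherin of endothelial junctions, had 0.72. The 9 endothelial markers that include CDH5 summed to 5.82 to 53.4 CPM in sgZBTB11 #1, of which CDH5 itself gave 5.82 to 53.2 CPM. PAQR5, a membrane progestin receptor, and CDA, the cytidine deaminase that inactivates gemcitabine, each had a log2 difference of 0.69.

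Some genes were near 0 in 1 of the 2 lines, and their sums of counts over 11 libraries are given because fitted fold changes of such genes depend on the fit. FLRT3, a leucine-rich transmembrane protein of cell adhesion, had 173 counts in sgZBTB11 #1 and 7 in sgNS, a ratio per total count of 23.9 (95% exact interval 11.4 to 60.4, counting error only). FLRT3 had 11 counts in the 12 uninduced libraries of sgZBTB11 #2. In the other direction NPM2, a histone chaperone of the oocyte, had 305 counts in sgNS and 7 in sgZBTB11 #1, a ratio of 45 (21.6 to 113), and 3 counts in sgZBTB11 #2. TGFBR2, the type II receptor for TGF-beta, had 0.924, 1.29 and 2.12 CPM in sgZBTB11 #1 and 0.122, 0.146 and 0.450 in sgNS, with no overlap, a log2 difference of 2.74 (SE 0.219, adjusted p = 7.3e-11). The highest library of sgZBTB11 #2 had 0.138 CPM of TGFBR2. A further 5 genes were chosen after their values were seen. TNC, the matrix glycoprotein tenascin C, had 86 counts against 2, a ratio of 41.7 (11.2 to 349), and MACROD2, an ADP-ribose hydrolase, had 90 against 4, a ratio of 21.8 (8.22 to 81.7). HAPLN1, which links hyaluronan to proteoglycans, had 302 against 35, a ratio of 8.36 (5.88 to 12.2). CDK6, a G1 cyclin-dependent kinase, had 102 against 10, a ratio of 9.88 (5.16 to 21.2), and PIK3CG, a catalytic PI3-kinase subunit, had 115 against 14, a ratio of 7.96 (4.55 to 15.0). Per library these 5 genes were low in both lines, with the highest level, 2.87 CPM, in a sgZBTB11 #1 library for HAPLN1.

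Several of the larger differences were adjacent in the order of the genes tested. Among standing genes with a size of at least 0.5, 12 pairs were adjacent in that order, by RefSeq positions (GRCh38.p14). Genes that were not tested can lie between the members of a pair. In each pair both genes differed in the same direction, and the number of pairs to be expected was not tested. The pair SULT1A2 with SULT1A1 holds close paralogs, whose reads are split by estimation. Besides DKK1 with LNCAROD and CXCL8 with CXCL1, the pairs included MACROD2 with FLRT3 and CTSZ with TUBB1 on chromosome 20. FLRT3 (14322985 to 14337612, minus strand) lies inside MACROD2 (13995516 to 16053197, plus strand), and without the strand setting of the counting their reads cannot be told apart. CTSZ encodes the lysosomal protease cathepsin Z (58995185 to 59007254). CTSZ had 354, 413 and 659 CPM (lowest, median, highest) in sgZBTB11 #1 and 570, 796 and 918 in sgNS, a log2 difference of -0.57 (SE 0.0283, adjusted p = 6.9e-16). Its neighbour TUBB1 (59016438 to 59026654) had 4.57, 6.11 and 18.6 CPM in sgZBTB11 #1 and 9.25, 22.7 and 33.3 in sgNS. Both were lower in sgZBTB11 #1 at each time with no overlap within a time. The promoter windows of these 2 pairs, 300 bases around a start in RefSeq (GRCh38.p14), are shown because the members of each pair moved together. They are chr20:13995266-13995565 (plus strand), chr20:14337563-14337862 (minus strand), chr20:59007205-59007504 (minus strand) and chr20:59019179-59019478 (plus strand), read 5′ to 3′ with each CG in capitals. The TUBB1 window lies inside the gene's span given above, at another start than its first base.
MACROD2: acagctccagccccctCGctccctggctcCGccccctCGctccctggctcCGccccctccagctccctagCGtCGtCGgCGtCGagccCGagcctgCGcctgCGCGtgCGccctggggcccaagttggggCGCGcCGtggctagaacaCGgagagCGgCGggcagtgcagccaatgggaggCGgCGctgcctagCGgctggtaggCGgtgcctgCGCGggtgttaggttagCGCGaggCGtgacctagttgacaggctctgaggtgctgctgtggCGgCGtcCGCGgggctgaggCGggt
FLRT3: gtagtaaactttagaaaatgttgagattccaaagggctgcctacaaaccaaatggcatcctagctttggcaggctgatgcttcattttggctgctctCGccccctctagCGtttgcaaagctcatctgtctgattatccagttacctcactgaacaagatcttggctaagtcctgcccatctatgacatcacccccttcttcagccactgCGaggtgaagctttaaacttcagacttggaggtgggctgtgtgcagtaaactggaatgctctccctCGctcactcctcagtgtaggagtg
CTSZ: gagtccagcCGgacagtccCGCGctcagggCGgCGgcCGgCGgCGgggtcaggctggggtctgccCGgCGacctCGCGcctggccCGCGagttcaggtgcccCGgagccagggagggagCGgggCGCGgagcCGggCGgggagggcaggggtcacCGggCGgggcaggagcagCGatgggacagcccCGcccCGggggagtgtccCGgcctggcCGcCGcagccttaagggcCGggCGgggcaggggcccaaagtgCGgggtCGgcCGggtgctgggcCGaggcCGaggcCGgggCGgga
TUBB1: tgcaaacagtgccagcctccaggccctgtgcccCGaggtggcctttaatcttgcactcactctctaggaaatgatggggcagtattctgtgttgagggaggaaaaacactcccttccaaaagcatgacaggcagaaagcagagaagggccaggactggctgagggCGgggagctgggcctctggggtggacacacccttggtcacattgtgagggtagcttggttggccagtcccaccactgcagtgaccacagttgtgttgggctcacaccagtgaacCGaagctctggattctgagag
The dinucleotide CG, which reads the same on both strands, occurred 34 times in the MACROD2 window and 4 times in the FLRT3 window, and 37 times in the CTSZ window and 3 times in the TUBB1 window. Over the 35116 promoter windows of the table, 96.0% held at least 1 CG and 56.4% held at least 10, with a median of 14.

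Genes of the interferon response were lower in sgZBTB11 #1. Interferon-stimulated genes encode antiviral proteins that are switched on by interferon signalling and can stay expressed at a low level in tumour cells. Of 31 tested, 15 were standing lower (48.4%, against 7.75% of all genes tested) and 0 standing higher (against 6.88%). The list's median log2 difference was -0.25 against 0.01 over all genes tested. BST2, which tethers budding viruses, had 8.55, 14 and 17.4 CPM in sgZBTB11 #1 and 13.6, 23.2 and 27.9 in sgNS (lowest, median, highest). BST2 was below sgNS at each time without overlap, by -0.63 on the log2 scale (SE 0.0526, adjusted p = 1.8e-10). OAS1, a sensor of double-stranded RNA, had 1.41 to 19.7 CPM against 2.18 to 27.4, a log2 difference of -0.52. SAMD9L, an antiviral restriction factor, and XAF1, a pro-apoptotic protein, had differences of -0.83 and -0.78. ISG20, an exonuclease, had -0.64 and OASL, a relative of OAS1, had -0.68, with a DOX value for OASL of -0.22 that did not pass (adjusted p = 0.30) and no call without the 5 hr libraries. With DOX, 14 of the 15 were again lower past the threshold, against 85.3% of all standing lower genes and 15.8% of all genes tested there. In sgZBTB11 #2 minus sgNS, which shares the sgNS libraries, 9 members were lower past the threshold and 0 higher. Of all 17255 genes tested, 762 were lower there and 621 higher.

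Antigen presentation by MHC class I, which displays peptides cut by the proteasome on HLA molecules, moved the same way. Of 16 genes tested, 10 were standing lower (62.5%, against 7.75% of all genes tested) and 0 standing higher (against 6.88%), with a median of -0.22. All 10 were lower past the threshold with DOX, near the 85.3% of all standing lower genes. The comparison sgZBTB11 #2 minus sgNS, which shares the sgNS libraries, had 7 members lower past the threshold and 0 higher. Its median was -0.15, and of all 17255 genes tested 762 were lower there and 621 higher. B2M, the invariant light chain, had 527, 702 and 809 CPM in sgZBTB11 #1 and 714, 852 and 916 in sgNS. The log2 difference of B2M was -0.23 (SE 0.0343, adjusted p = 6.0e-06) over all times, but -0.37 at 5 hr and -0.04 at day 5. HLA-B and HLA-C, heavy chains, had log2 differences of -0.28 and -0.32, and reads of HLA genes are split between near-identical copies, so their values are uncertain. PSMB9, an immunoproteasome subunit, had a difference of -0.41. The aminopeptidases ERAP1 and ERAP2, which trim peptides, had -0.48 and -0.36. On chromosome 5 the span of ERAP2 (96875984 to 96919716) lies inside that of ERAP1 (96760813 to 96935854). Without the strand setting their reads cannot be told apart there. ERAP1 had -0.02 at day 1 (adjusted p = 0.93), and its libraries overlapped within at least 1 time.

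**Figure D2:**
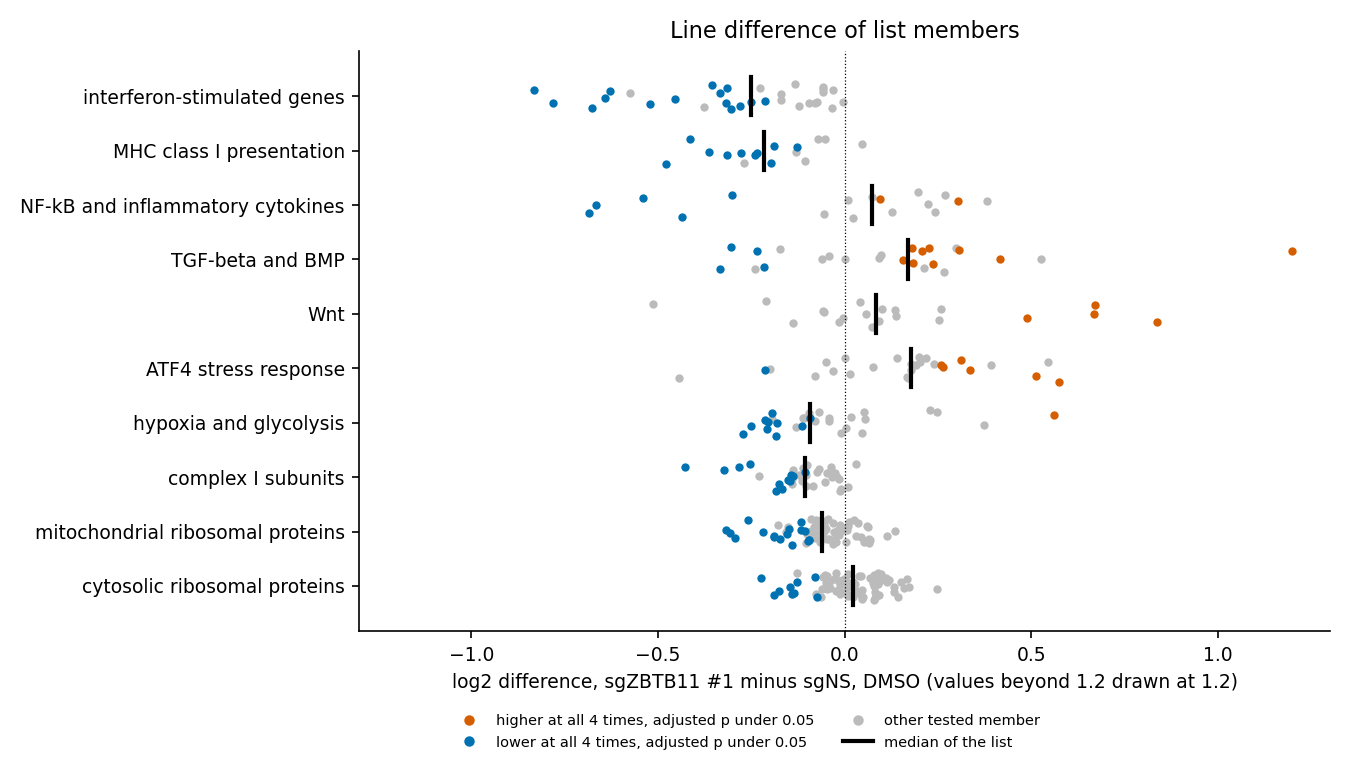
Log2 difference, sgZBTB11 #1 minus sgNS with DMSO (horizontal axis), of each tested member of 10 gene lists, with colour for standing higher or lower members and a bar for the list's median. Coloured members of the interferon and MHC class I lists lie to the left of 0, with medians of -0.25 and -0.22.

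Chemokines that attract neutrophils were lower, and no other member of the NF-kB list was standing lower. Of the list's 17 tested genes, 5 were standing lower (29.4%, against 7.75% of all genes tested) and 2 standing higher (11.8%, against 6.88%). Its median was 0.07. The 5 lower genes were all CXC chemokines of a cluster on chromosome 4, so they are neighbours and not independent. CXCL8, interleukin-8, had 268 ± 4.4 CPM in sgZBTB11 #1 and 353 ± 17 in sgNS at 5 hr (SD, n = 3 each), and 25 ± 1.0 (n = 2) and 47.2 ± 0.20 (n = 3) at day 5. The libraries did not overlap at any time, and the log2 difference was -0.67 (SE 0.0538, adjusted p = 4.2e-09). CXCL1 and CXCL3 had log2 differences of -0.54 and -0.69. CXCL2 had -0.44 with values from -1.46 at day 5 to -0.01 at day 3, and lost its call without the day 1 libraries.

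Signalling by TGF-beta runs from ligand through the receptors TGFBR2 and TGFBR1 to SMAD proteins. Of 24 tested members of the TGF-beta and BMP list, 9 were standing higher (37.5%) and 4 standing lower (16.7%), with a median of 0.17. Over all genes tested the shares were 6.88% and 7.75%. With DOX, 12 of these 13 members passed in the same direction, as did 68.7% of all standing higher and 85.3% of all standing lower genes. With limma on log2(TPM + 1), 2 were standing higher and 1 standing lower. The largest of the higher members was the receptor TGFBR2 (2.74). LTBP2, a matrix protein related to those that hold latent TGF-beta, had a log2 difference of 0.42, and PMEPA1, a target and inhibitor of the pathway, had 0.31 with 0.17 at 5 hr and 0.59 at day 5. ID1, a target of BMP signalling, was lower by -0.33. In the Wnt list the median was 0.08, and 4 of 20 tested genes were standing higher (20%, against 6.88% of all genes tested) and 0 lower. These were DKK1 (0.84), NOTUM, a secreted deacylase that inactivates Wnt (0.67), LEF1, a transcription factor of the pathway (0.67), and NKD1, an intracellular inhibitor (0.49). NOTUM and LEF1 were low, at 0.243 to 1.85 and 0.888 to 3.28 CPM in sgZBTB11 #1, and overlapped with sgNS. LEF1 lost its call without the libraries of day 1, and NOTUM without those of day 3 or of day 5. With DOX, 3 of the 4 passed in the same direction, and NOTUM, at 0.0006, did not. With limma on log2(TPM + 1), 2 Wnt genes were standing higher.

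Among genes of metabolism, glycolysis and the nuclear genes of the respiratory chain held standing decreases of small size. List medians varied with time. Of 29 genes of the hypoxia and glycolysis list, 10 were standing lower (34.5%, against 7.75% of all genes tested) and 1 standing higher (3.45%, against 6.88%). The list's median was -0.09, and limma on log2(TPM + 1) gave 5 standing lower. Pyruvate kinase PKM and aldolase ALDOA had log2 differences of -0.25 and -0.21, the glucose transporter SLC2A3 had -0.27, and the exception ALDOC, another aldolase, had 0.56. Complex I is the NADH dehydrogenase of the inner mitochondrial membrane. Of its 37 nuclear subunits tested, 12 were standing lower (32.4%, against 7.75% of all genes tested) and 0 higher, with a median of -0.10. NDUFS4, an accessory subunit encoded on chromosome 5, had 76.4 ± 2.0 CPM in sgZBTB11 #1 and 104 ± 3.4 in sgNS at 5 hr (SD, n = 3 each), and 19 ± 1.5 (n = 2) and 31.5 ± 1.1 (n = 3) at day 5. Its log2 difference was -0.43 (SE 0.0376, adjusted p = 5.1e-10) with no overlap within a time. NDUFB11 had -0.32, NDUFA2 -0.28 and NDUFS6 -0.25. The 3 subunits on chromosome 5 (NDUFS4, NDUFA2 and NDUFS6) were all standing lower, as were 9 of the 34 encoded elsewhere. All 12 were lower past the threshold with DOX, near the 85.3% of all standing lower genes. Between sgZBTB11 #2 and sgNS, 11 of the 37 were lower in sgZBTB11 #2 past the threshold and 0 higher, with a median of -0.06. Of all 17255 genes tested, 762 were lower there and 621 higher. Without the day 3 libraries 19 were standing lower. Of 76 mitochondrial ribosomal proteins 17 were standing lower, including MRPS12 (-0.32) and MRPS18A (-0.31), and 0 higher. The share lower was 22.4%, against 7.75% of all genes tested, and the median of the 76 was -0.06. At 5 hr and day 1 that median was -0.09 and -0.11, and at days 3 and 5 it was 0.015 and -0.0008. With limma on log2(TPM + 1), 8 of them were standing lower. The share of counts from mitochondrial DNA, given above, differed between the lines at day 1, day 3 and day 5, and its part in these small differences was not tested.

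Genes of G2 and mitosis stood near the background, with 3 of 36 standing lower (8.33%, against 7.75% of all genes tested) and 1 higher (2.78%, against 6.88%). The 3 lower genes, the securin PTTG1 (-0.30), the kinesin KIF20A (-0.27) and the cyclin CCNB1 (-0.22), all lie on chromosome 5. The higher gene, the kinase AURKB, had a log2 difference of 0.10 and lost its call without the 5 hr libraries. Of 36 DNA replication genes 7 were standing higher (19.4%) and 1 standing lower (2.78%). ORC6, a subunit of the origin recognition complex, had 0.28 and GINS3, of the replicative helicase, had 0.23, and both lie on chromosome 16, as did 3 of the 7, while the other 4 did not. GINS1 had 0.23 and GINS4 had -0.29. The replication list changed direction with time. Its 5 hr median was -0.06, with 4 members past the threshold higher and 9 lower. On day 1 the median was 0.19 (21 higher, 1 lower), and the later medians were 0.05 (day 3) and 0.13 (day 5). The line difference varied with time in 24 of the 36. Against the same sgNS libraries, sgZBTB11 #2 had 10 members higher past the threshold and 1 lower.

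Of 21 epithelial adhesion and keratin genes tested, 2 were standing higher (9.52%) and 1 lower (4.76%), with a median of 0.01. Over all genes tested the shares were 6.88% and 7.75%, so this list stood near the background. The lower gene was KRT19, a keratin of ductal epithelium (-0.54), and the higher genes were DSP, the desmosomal protein desmoplakin (0.35), and OCLN, the tight junction protein occludin (0.19).

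Genes of the ATF4 response were higher in sgZBTB11 #1 at 5 hr but not as a group at later times. ATF4 is a transcription factor translated under amino acid or mitochondrial stress, and its targets make amino acids and load tRNAs. At 5 hr 21 of the 27 tested genes were higher in sgZBTB11 #1 and 1 was lower, against 13.1% and 14.7% of all genes tested, with a list median of 0.64. The median was -0.14 at day 1, with 2 members higher and 12 lower, and 0.05 at day 3 and at day 5. Over all times 6 were standing higher (22.2%) and 1 standing lower (3.70%), against 6.88% and 7.75% of all genes tested. All 3 members on chromosome 16 were standing higher, as were 3 of the other 24. Without the 5 hr libraries the median was -0.07 and 2 were standing higher. ASNS, asparagine synthetase, had 89.0 ± 1.2 CPM in sgZBTB11 #1 and 37.2 ± 1.7 in sgNS at 5 hr (SD, n = 3 each), with no overlap. At day 3 it had 22.4 ± 0.85 and 21.3 ± 3.1 CPM (n = 3 each), and the log2 difference was 0.06. CHAC1, which breaks down glutathione, had 16.7 ± 0.81 against 4.51 ± 0.17 CPM at 5 hr (n = 3 each). At day 1 CHAC1 had 3.71 ± 0.72 (n = 3) against 7.42 ± 0.40 (n = 2), so that its order was turned. ATF4 mRNA had log2 differences of 0.64, -0.27, 0.08 and 0.18 at the 4 times. PHGDH and PSAT1, of serine synthesis, had 0.64 and 0.84 at 5 hr and 0.05 and 0.01 at day 3. NUPR1, a stress-induced chromatin protein, was standing higher by 0.51 and lost its call without the libraries of 5 hr, of day 3 or of day 5. The DOX libraries, which share none with these, gave list medians of 0.65 at 5 hr and -0.15 at day 1.

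Messenger RNAs of mitochondrial DNA and of ribosomal proteins changed order with time. The 13 mitochondrial mRNAs had median log2 differences of 0.0015, -0.37, 0.36 and 0.56 at 5 hr and days 1, 3 and 5, and each of the 13 changed sign between day 1 and day 3. Of the 13, 11 were lower past the threshold at day 1 and 12 higher at day 5, against 9.51% and 9.72% of all genes tested. MT-ND4, a complex I subunit encoded there, had a log2 difference of -0.46 at day 1 and 0.55 at day 5, and MT-CO2, of cytochrome c oxidase, had -0.32 and 0.72. With DOX the medians were -0.0026, -0.51, 0.22 and 0.21. Of 78 cytosolic ribosomal proteins 52 were lower at day 1 and 42 higher at day 5, with medians of -0.16 and 0.17. With DOX their median was -0.28 at day 5. NR4A1, an immediate early gene, had log2 differences of 0.45, -0.59, 0.52 and -0.70 at the 4 times. With DMSO the mitochondrial share of counts was lower in sgZBTB11 #1 than in sgNS at day 1 and higher at days 3 and 5. With DOX at day 5 it was higher in sgZBTB11 #1 (32.8% to 33.1%) than in sgNS (29.4% to 29.8%), while the ribosomal protein median was below 0. Its part in the ribosomal protein values was not tested.

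**Figure D3:**
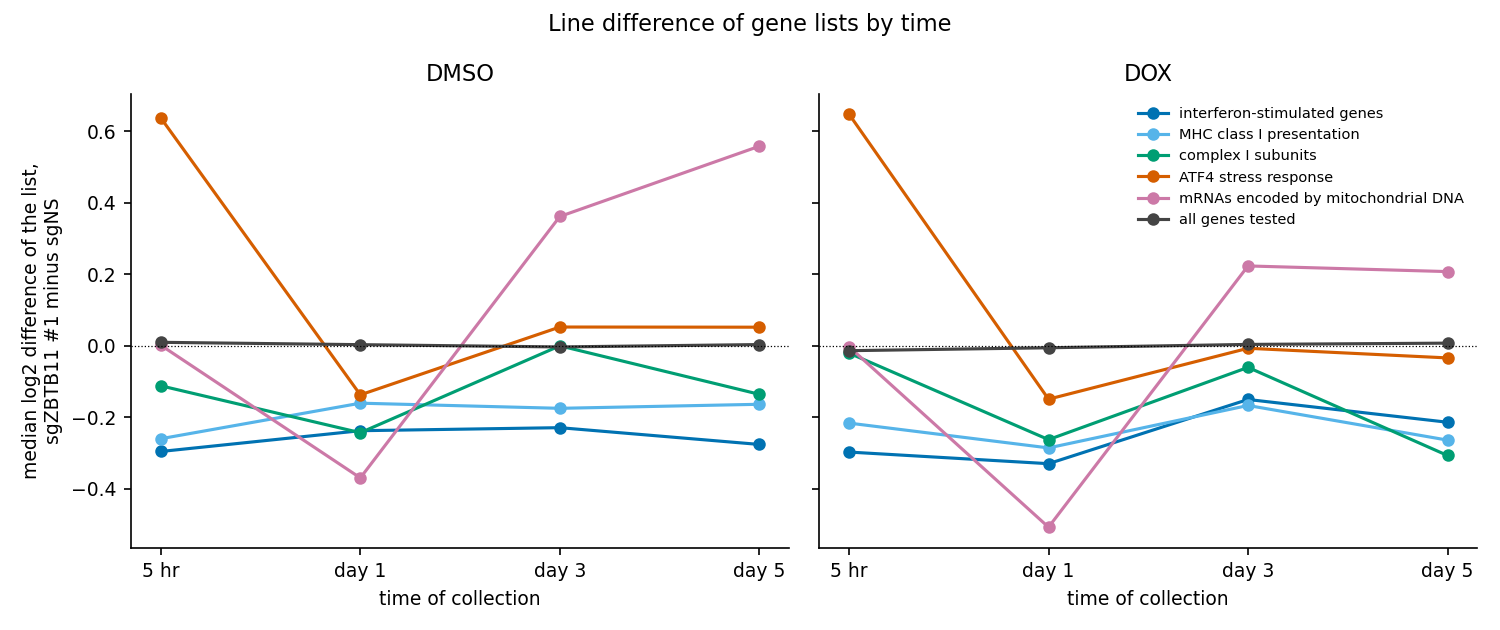
Median log2 difference, sgZBTB11 #1 minus sgNS (vertical axis), of 5 gene lists and of all genes tested by time of collection, with DMSO at left and DOX at right. The interferon and MHC class I medians lie below 0 at each time in both panels, while the ATF4 median is 0.64 with DMSO and 0.65 with DOX at 5 hr and near 0 at day 3.

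Position on the genome was compared by chromosome for the 14391 tested genes (83.4%) that the RefSeq table places. Over all of them 7.68% were standing higher and 8.80% standing lower, with a median log2 difference of 0.0050. On chromosome 5, 172 of 665 genes (25.9%) were standing lower and 14 standing higher, with a median of -0.09. On chromosome 16, 157 of 694 genes (22.6%) were standing higher and 28 lower, with a median of 0.10. On chromosome 13, 59 of 242 genes (24.4%) were standing higher and 5 lower, with a median of 0.11. The medians with DOX were -0.11, 0.10 and 0.11 for chromosomes 5, 16 and 13. The medians of sgZBTB11 #2 minus sgNS, which shares the sgNS libraries, were -0.02, 0.01 and 0.09. Genes such as NDUFS4, ERAP1, PTTG1 and CCNB1 on chromosome 5 and ORC6 and GINS3 on chromosome 16 were thus among many genes of their chromosome that differed in the same direction.

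**Figure D4:**
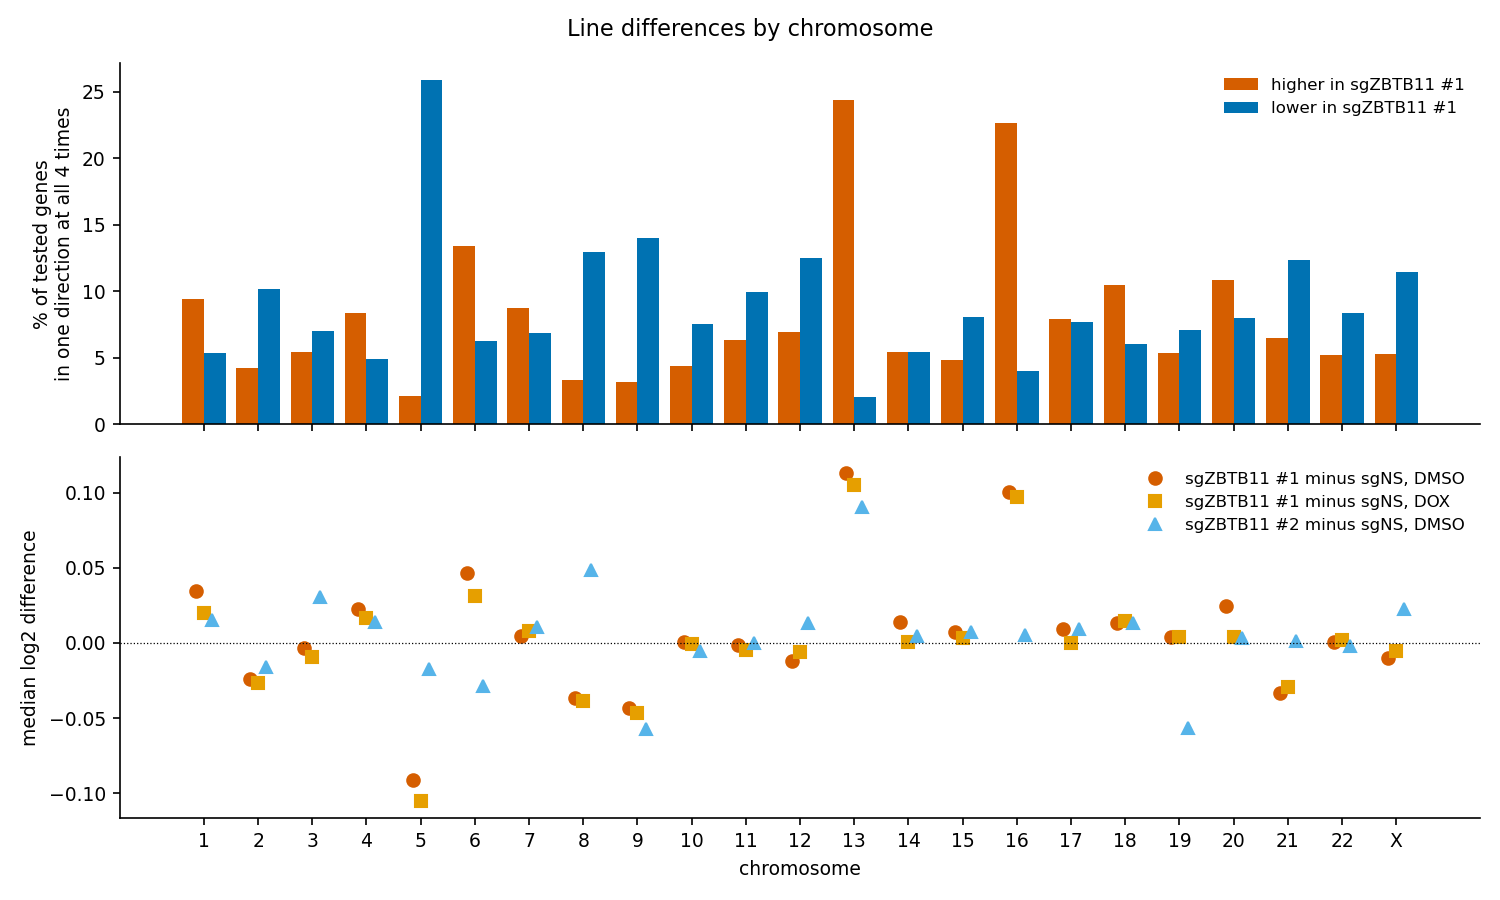
Percent of tested genes that were standing higher or lower in sgZBTB11 #1 (upper bars, from 0) and median log2 difference (lower points) by chromosome. Chromosome 5 stands low at -0.09 with DMSO and -0.11 with DOX, and chromosomes 13 and 16 stand high at 0.11 and 0.10 with DMSO.

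In runs of 50 consecutive tested genes, 13 of 276 runs had a median above 0.1 and 8 a median below -0.1. On chromosome 5, 12 of 13 runs lay below 0, and all 13 did with DOX. All 13 runs of chromosome 16 and all 4 runs of chromosome 13 lay above 0 with DMSO and with DOX. The lowest run of the genome was the end of chromosome 12 (123232914 to 133214832 in GRCh38.p14), where 31 of 52 genes were standing lower and 0 higher, with a median of -0.17 and of -0.19 with DOX. The run before it had a median of -0.03. The last run of chromosome 16 (75566379 to 90177606) had the highest median, 0.15, with 40 of 94 genes standing higher. With limma on log2(TPM + 1) and no filter the medians of chromosomes 5, 13 and 16 shrank to -0.03, 0.01 and 0.02, and that of the end of chromosome 12 was -0.11.

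**Figure D5:**
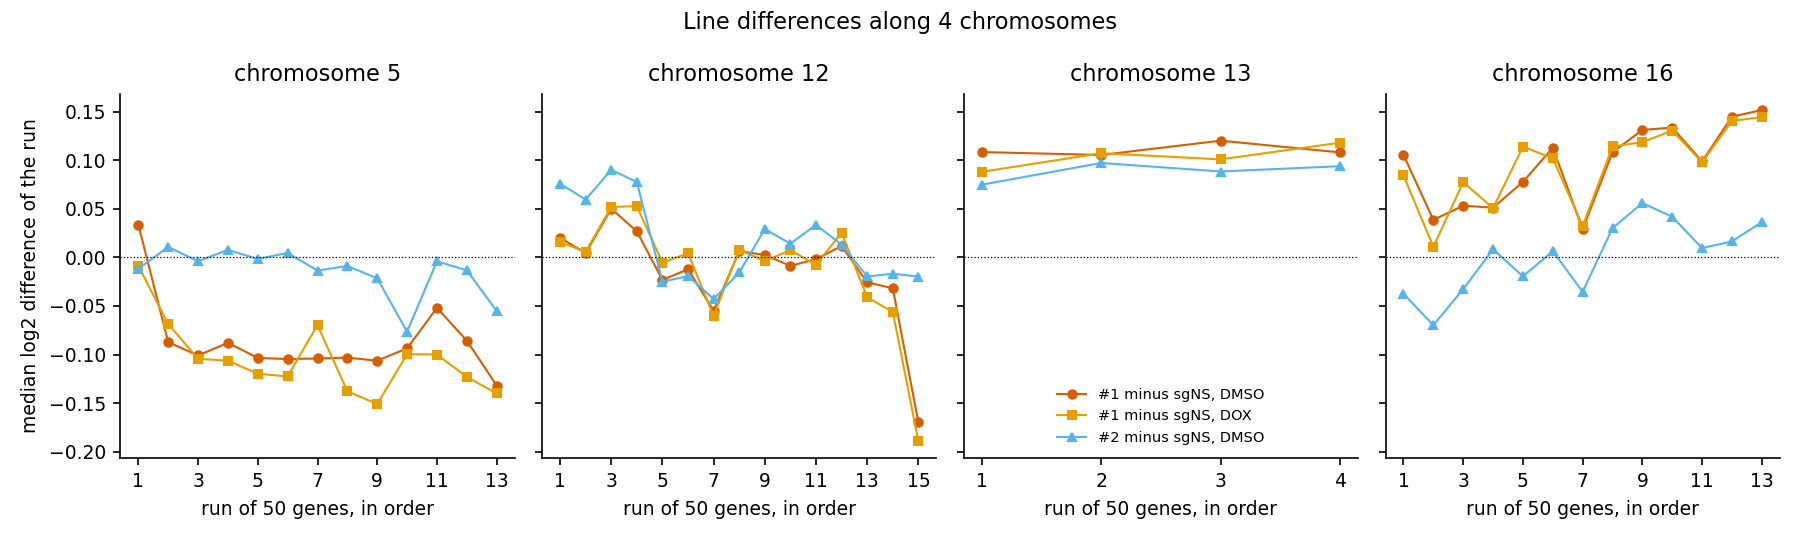
Median log2 difference (vertical axis) of runs of 50 consecutive tested genes along 4 chromosomes, in order of position (horizontal axis), for sgZBTB11 #1 minus sgNS with DMSO and with DOX and for sgZBTB11 #2 minus sgNS with DMSO. The last run of chromosome 12 lies at -0.17 with DMSO and -0.19 with DOX, apart from the run before it at -0.03.

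The same 2 lines were then compared in their 24 DOX libraries, which share no library with the uninduced comparison but come from the same lines, collected at the same times, and in which sgZBTB11 #1 also carries the induced knockdown. There 4987 of 16941 genes (29.4%) passed the threshold, 13.7% higher and 15.8% lower in sgZBTB11 #1. Of the standing higher genes tested there, 811 of 1181 (68.7%) passed in the same direction and 2 in the other. Of the standing lower genes, 1134 of 1330 (85.3%) passed in the same direction and 0 in the other. Among standing genes of size 1 or more the shares were 23 of 30 (76.7%) and 28 of 29 (96.6%). CFI had a log2 difference of -2.27 with DOX, DHRS2 -2.06, COL6A3 2.01 and COL3A1 1.00, close to the values without it. Across the 2511 standing genes the values with and without DOX had a Pearson correlation of 0.96, and across 16795 genes tested in both of 0.68. Genes are not independent replicates, and the standing genes were chosen on the uninduced values.

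The uninduced line with the other guide, sgZBTB11 #2, is given beside sgNS gene by gene, since the comparisons share the sgNS libraries. In sgZBTB11 #2 minus sgNS, 1400 of 17598 genes (7.96%) passed, and in sgZBTB11 #1 minus sgZBTB11 #2, 1949 (11.1%). Some of the largest differences had the same sign in both guides' lines. DHRS2 was -2.44 in sgZBTB11 #2 minus sgNS on the log2 scale, COL3A1 0.84, KRT19 -0.56, CDH5 0.68 and COL6A3 1.16. Others did not. LINC01182 was 0.56 and TPD52L1 1.25, both past the threshold and opposite in sign to sgZBTB11 #1, and PRND was -0.10 (adjusted p = 0.85). TPD52L1 thus had its highest library, 27.7 CPM, in sgZBTB11 #2, against 9.13 in sgNS and 5.19 in sgZBTB11 #1. TGFBR2 was -2.21, opposite to its 2.74 in sgZBTB11 #1, from levels near 0 in both sgNS and sgZBTB11 #2. TANC2 (0.03) and COL5A2 (0.02) did not pass.

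The targeted gene was compared in the same fits. ZBTB11, a zinc finger transcription factor, had 55.5 ± 2.7, 47.9 ± 2.7, 46.1 ± 0.68 and 48.7 ± 2.5 CPM in sgZBTB11 #1 at 5 hr, day 1, day 3 and day 5 (SD, n = 3, 3, 3 and 2). In sgNS it had 51.6 ± 1.7, 51.3 ± 0.095, 54.8 ± 4.3 and 56.1 ± 4.6 CPM (n = 3, 2, 3 and 3). Its log2 difference over all times was -0.10 and did not pass (adjusted p = 0.096), but ZBTB11 was lower past the threshold at day 3 (-0.26, adjusted p = 0.00082) and at day 5 (-0.22, adjusted p = 0.0081). At 5 hr and day 1 the differences of 0.13 and -0.08 did not pass. With DOX the difference of ZBTB11 was -0.35 (adjusted p = 3.0e-05).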

How the data were processed

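RNA was prepared as poly(A) libraries and sequenced in paired reads, per the labels' protocols. Expected counts, estimated per gene, and TPM values were deposited by the authors in 2 tables. The submitters' processing notes name RSEM and the build GRCh38.p14. The aligner, annotation version and strand setting were not given in the sources used here. Reads of overlapping genes therefore cannot be told apart by strand, and reads of close paralogs are split by estimation. Each table held 78932 genes, and 5.13% of the count values were not whole before rounding.

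Expected counts were rounded and tested with edgeR 4.0.16 in R 4.3.3 (filterByExpr by group, TMM scaling, robust quasi-likelihood F tests, Benjamini-Hochberg adjustment over all genes tested). The 22 DMSO libraries of the 2 lines entered 1 fit with line and time as additive terms and 1 fit with a line difference at each time. The 24 DOX libraries had their own fit, and sgZBTB11 #2 was added in a fit of 3 lines. CPM values are TMM-scaled. Libraries of a group differed beyond counting error, with a chi-square per degree of freedom of 1.34 to 4.86 over 20 pairs.

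Named genes were the 12 largest standing differences in each direction with a mean of at least 5 CPM in the higher line and no overlap of the lines within any time, up to 4 standing members of each list, genes near 0 in either line, and genes whose difference changed sign with time. BST2, OAS1, HLA-B, B2M, CTSZ, ATF4, CHAC1, TNC, MACROD2, HAPLN1, CDK6 and PIK3CG were outside this rule and were chosen after seeing their values. The members and the 38 gene lists (1391 symbols) were chosen with earlier results of these data known, so counts over a list are descriptions with no test. Coordinates and promoter windows come from RefSeq tables of the same build, and neighbours are genes adjacent in the order of tested genes. A comparison of CG counts over gene sets was void, since 65.2% of the genes tested had a promoter window.

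As alternatives, DESeq2 1.42.0, RLE scaling, no filter, a replicate block, 1 fit of all 70 libraries, removal of a length and GC trend (known for 91.2% of genes), limma 3.58.1 on log2(TPM + 1) with genes of at least 1 TPM in 3 libraries or with no filter, or on log2(TPM + 0.1), and leaving out each library or each time were run. The tests were checked on simulated data before use.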

Additional observations from a re-analysis of the deposited data

Results flagged for a closer look

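Of the 88 genes named in the text and tested, 42 had a difference between the lines that was not the same at the 4 times of collection (edgeR's joint quasi-likelihood F test of line by time, adjusted p in parentheses). Genes of mitochondrial DNA and of the immediate early and ATF4 responses changed their difference, some with a change of sign: MT-ND4 (1.1e-22), MT-CO2 (1.4e-22), NR4A1 (2.8e-20), ATF4 (3.2e-19), PSAT1 (1.8e-17), ASNS (8.9e-16), CHAC1 (4.1e-15) and PHGDH (3.8e-08). Among the genes with the largest standing increases, the adjusted p was under the threshold for DKK1 (6.9e-16), PRND (3.5e-12), COL6A3 (1.9e-11), LNCAROD (0.00018), RAB17 (0.00034), SEMA3C (0.0063) and CDH5 (0.031). Among those with the largest decreases and their neighbours it was under the threshold for DHRS2 (0.0086), TANC2 (0.0019), TNFSF18 (0.017), SULT1A1 (0.025), TPD52L1 (0.038) and CTSZ (0.00014). Of collagen, keratin and adhesion genes it was under the threshold for COL5A2 (0.0092), KRT19 (2.5e-07) and DSP (0.022). In the chemokine, interferon, MHC class I and TGF-beta lists the genes were CXCL2 (1.2e-13), CXCL8 (3e-10), CXCL1 (0.019), B2M (2.3e-09), HLA-B (1.1e-05), ERAP1 (0.00016), PSMB9 (0.019), ID1 (8.6e-10) and PMEPA1 (3.3e-05). In the metabolic, mitochondrial and cell cycle lists they were NDUFB11 (3.6e-07), NDUFA2 (3.5e-06), NDUFS4 (0.00019), PKM (3.7e-06), ALDOC (0.0097), MRPS12 (0.00012), PTTG1 (0.0054) and GINS4 (0.028). The targeted gene ZBTB11 (0.0005) also varied. Over all genes tested, 34.2% passed this test. For COL6A3, DKK1 and PRND the log2 difference was larger at day 5 than at 5 hr, at 3.36 against 1.41, 2.08 against 0.42 and 2.09 against 0.59. For B2M, HLA-B and PSMB9 it was nearer 0 at day 5 than at 5 hr, at -0.04 against -0.37, -0.09 against -0.41 and -0.18 against -0.55. For NDUFS4 and NDUFB11 it was farther from 0 at day 5, at -0.73 against -0.43 and -0.58 against -0.30. Causes of these changes with time were not tested.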

How the results depend on the processing

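RLE scaling, DESeq2, a fit of all 70 libraries, the length and GC trend and the removal of whole times kept the counts of standing higher and lower genes within 1.5 times. Of 82 genes named in the text and past the threshold, 66 kept their call and direction in all settings that tested them. PSAT1, NUPR1, NOTUM, CXCL2, OASL, LEF1 and AURKB lost it without a time of collection. Standing genes of size 1 or more (65) numbered 130 with no filter, 99 in the fit of all libraries, 274 at a size of 0.5 and 22 at a size of 2. Deviations of same-numbered libraries correlated at -0.045 to 0.069 over 10 pairs. No shared effect was visible, which cannot show whether such libraries were paired. With the replicate block, 2404 genes differed over all times in place of 3734.

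Limma on log2(TPM + 1) gave 1631 genes over all times, 344 standing higher, 685 standing lower, 11 of size 1 or more, 5480 at day 5, 3250 with DOX and 776 standing genes kept with DOX (1945 in edgeR). With log2(TPM + 0.1) these were 1612, 336, 680, 32, 5513, 3220 and 767. With log2(TPM + 1) and no filter they were 1122, 278, 574 and 11, with 2861 at 5 hr, 2404 with DOX and 636 kept. ARAF turned to 0.0084 under limma on log2(TPM + 1), with or without the filter, and to 0.0087 at log2(TPM + 0.1), and ZNF577 turned to -0.018 and -0.023. ZBTB20 turned to 0.049 with no filter. Without day 1, the DOX differences turned to 0.16 for MT-ND4, 0.10 for MT-CO1, 0.10 for MT-ND1 and 0.13 for MT-CYB. The cause was not tested.

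Leaving out each library in turn gave 3338 to 3676 genes over all times, 1056 to 1175 standing higher, 1223 to 1356 standing lower, 62 to 78 of size 1 or more, and 5189 to 6162 that varied with time. At 5 hr it gave 4033 to 4962, at day 1 1732 to 3453, at day 3 2323 to 3292 and at day 5 1903 to 3480. With DOX it gave 4685 to 4963, and 1799 to 1957 kept. The low counts at day 1 (1942 and 1732) came without either sgNS library of day 1, and those at day 5 (2108 and 1903) without either sgZBTB11 #1 library of day 5, where fewer samples were left. Without replicate 1 of sgNS at day 1, 3 ATF4 genes were standing higher in place of 6. Precision is limited by 2 or 3 libraries per group, and genes under about 1 CPM rest on few counts.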

Other observations

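The lists below are described by their counts of standing genes, with no test, beside a background of 6.88% of genes tested standing higher and 7.75% standing lower. Of 16 tested NRF2 targets, which serve detoxification and iron storage, 5 were standing lower (31.3%) and 0 higher, with a median log2 difference of -0.07. Of 30 genes of cholesterol and fatty acid synthesis, 5 were standing higher (16.7%) and 2 lower, with a median of 0.04. Of 20 genes of RAS-MAPK output, 2 were higher and 3 lower, and of 30 components of the RAS pathway 1 was higher and 1 lower. Of 27 genes of the BCL2 family and apoptosis, 4 were standing lower (14.8%) and 0 higher. Among 18 genes of drug efflux and aldehyde metabolism, 3 were higher (16.7%) and 0 lower. Of 18 imprinted genes 4 were lower (22.2%) and 1 higher. Of 195 tested zinc finger genes of chromosome 19, 12 were standing higher and 2 lower, with a median of 0.03.

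Among 15 tested integrins, which bind matrix and other cells, 2 were standing higher and 3 lower, with a median of -0.05. Of 28 genes of axon guidance and synaptic adhesion 4 were standing higher and 1 lower. Of 20 HOX genes 2 were lower and 0 higher, and of 24 clustered protocadherins 1 was lower and 0 higher. Of 48 cancer-testis antigens 2 were tested and 0 were standing. Of 37 ZBTB family genes 1 was higher and 1 lower.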
